A study of Macaca mulatta with 6 samples.

Results

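Secreted Wnt antagonists are proteins that cells release to block Wnt ligands outside the cell. Their transcripts were compared in cultures that the study describes as rhesus monkey spermatogonial stem cells (SSCs), grown with and without platelet-derived growth factor (PDGF). The genes were chosen by name: SFRP1, SFRP2, SFRP4, SFRP5, FRZB, WIF1, DKK1, DKK2, DKK3 and NOTUM. Rows were found for 7 of these 10 genes among 17795 genes listed. SFRP5, DKK2 and NOTUM were not analysed here. The bulk RNA sequencing data comprised 3 libraries titled PDGF and 3 titled PDGFNO, and replicate 1 of each group was in batch 1 by the labels while replicates 2 and 3 were in batch 2. The labels name the source as testis of Macaca mulatta and do not mention culture, while the study's methods describe cells embedded in basement membrane droplets under a serum-containing medium with GDNF, EGF, bFGF, LIF, recombinant Wnt3a and human PDGF. The controls are described as PDGF-free, and no other difference of their medium is stated. Donors, their ages and the days in culture are not stated for these libraries.

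Wnt ligands signal by bringing together a Frizzled receptor and the co-receptor LRP5 or LRP6, which stabilizes beta-catenin. The secreted Frizzled-related proteins (SFRP1, SFRP2, SFRP4, SFRP5 and FRZB) carry a Frizzled-like domain that binds the ligand, and WIF1 binds the ligand through a domain of its own. The Dickkopf proteins DKK1 and DKK2 act at the other end, on LRP5 and LRP6, together with the KREMEN receptors, whereas DKK3 is a divergent member that does not block LRP6 in the same manner. NOTUM is an enzyme that removes the lipid from the ligand. In the testis, Wnt signals reach spermatogonia and the somatic cells around them, and fibroblast-like stromal cells are known sources of several of these antagonists.

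Library totals ranged from 13095467 to 14102697 counts with PDGF and from 10593805 to 11605908 without. Levels are given as CPM, the counts scaled to 1000000 per library with TMM factors, and 11539 genes passed the filter on low counts and were tested with edgeR. Of the markers of the cell type that the study names, DDX4 and GFRA1 were low, while ID4 and FGFR3 were higher. DDX4, a germ cell helicase, had 13 counts over the PDGF libraries and 69 over the PDGFNO libraries, and GFRA1, the GDNF co-receptor of undifferentiated spermatogonia, had 5 and 18. ID4, also a spermatogonial marker but one that other cells can express, averaged 131 ± 4.22 CPM with PDGF against 163 ± 14.4 CPM in the controls (SD, n = 3). FGFR3, from the same list of spermatogonial markers, averaged 13.7 ± 5.76 CPM with PDGF against 57.8 ± 28.8 CPM in the controls (SD, n = 3). The summed level of 7 stromal markers, collagens among them, lay between 14095 and 19409 CPM with PDGF and between 16947 and 19129 CPM without. In bulk libraries of such a mixture, fewer cells of a type and less RNA per cell cannot be told apart. Replicates 2 and 3 of a group were much closer to each other than to replicate 1, and whether they come from separate cultures is not stated, so the p-values measure the spread between these libraries, which may be technical.

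In the PDGF libraries, 4 of the 7 antagonists were lower (SFRP2, SFRP4, WIF1 and DKK1) and FRZB was higher. SFRP1 and DKK3 did not pass the test. All 7 genes passed the filter on low counts, and SFRP4 and WIF1 passed it only through the PDGFNO libraries, where they were detected. Over all genes tested, edgeR called 10.7% lower and 7.61% higher with PDGF at a Benjamini-Hochberg adjusted p under 0.05. Among the 5 antagonists with at least 10 counts in every library, 2 were lower and 1 was higher, where edgeR called 8.23% of all genes under that filter lower and 6.6% higher. The median log2 fold change of the 7 antagonists was -0.98, against 0.02 over all genes tested. That median includes SFRP4 and WIF1, so it is no sign of a shift of the whole set. The 5 genes with at least 10 counts in every library had values on both sides of 0. These were -1.41 for SFRP2, -0.98 for DKK1, -0.07 for DKK3, 0.33 for SFRP1 and 0.82 for FRZB. The groups did not overlap for 6 of the 7 genes, a pattern that 37.6% of all genes tested showed (19.3% lower and 18.2% higher with PDGF).

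**Figure D1:**
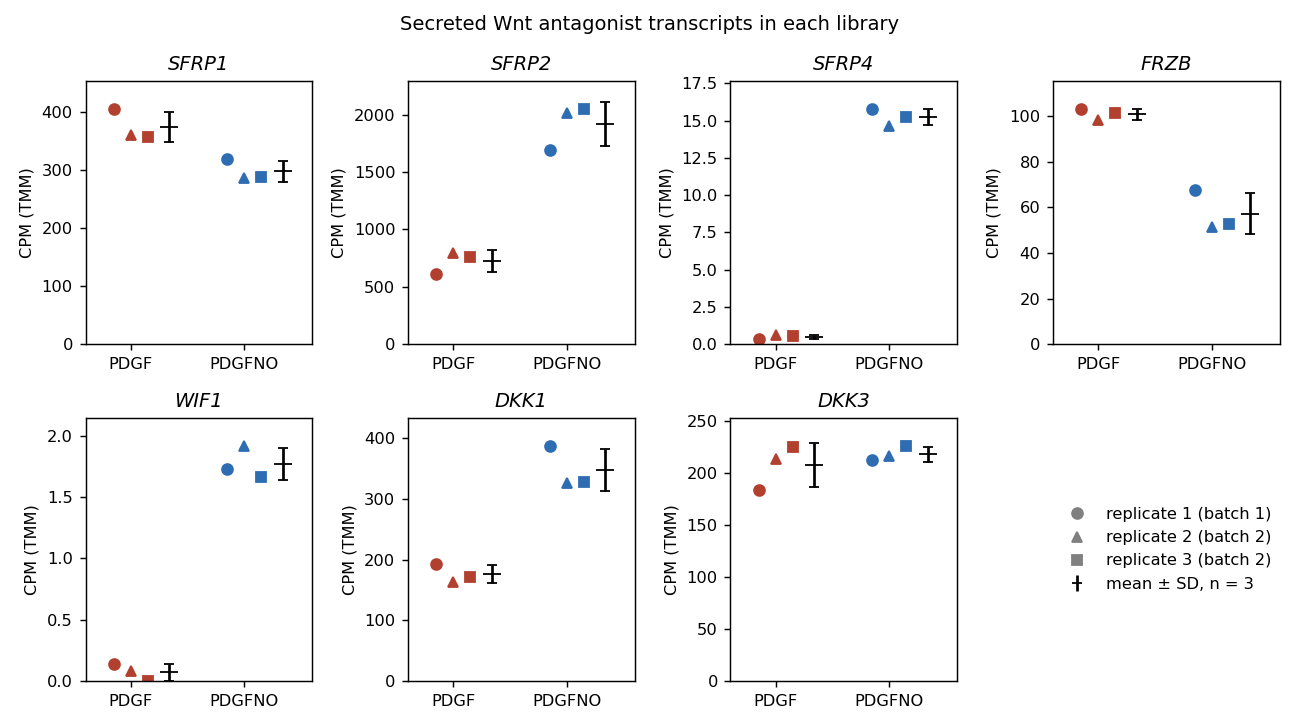
Level of each antagonist in CPM (vertical axes, linear, from 0) in the 3 PDGF libraries (red) and the 3 PDGFNO libraries (blue), with symbols for the replicates and black bars for the mean ± SD. The groups stand apart for every gene but DKK3, with PDGF lower for SFRP2, SFRP4, WIF1 and DKK1.

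Of the ligand-binding SFRP family, SFRP2 was the most abundant in reads. SFRP2 was at 613, 795 and 760 CPM in PDGF replicates 1, 2 and 3, and at 1695, 2012 and 2046 CPM in the PDGFNO replicates. Every PDGF library was below every PDGFNO library, and in both groups replicate 1 was the lowest. The PDGF mean of 723 ± 96.9 CPM was 2.65-fold below the control mean of 1918 ± 194 CPM (SD, n = 3), and edgeR gave a log2 fold change of -1.41 ± 0.15 (SE) at an adjusted p = 6.3e-04. The log2 difference was -1.47 in batch 1 and -1.38 in batch 2. By counts, SFRP2 ranked between 46 and 49 among all genes in the PDGFNO libraries, and between 159 and 202 in the PDGF libraries. Its mean fell by 1195 CPM, the 11th largest fall in CPM among the 11539 genes tested. In the RefSeq annotation of the Mmul_10 assembly, SFRP2 lies on chromosome 5 from 151419262 to 151427839 on the minus strand, with 3 exons and no overlapping gene.

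SFRP4, which is closely related to FRZB in sequence, fell to a few counts. SFRP4 had 5, 8 and 7 counts in the PDGF libraries and 192, 153 and 156 counts in the PDGFNO libraries. These counts correspond to 0.496 ± 0.146 CPM in the PDGF group, 30.7-fold below the 15.2 ± 0.558 CPM of the controls (SD, n = 3). Its log2 fold change of -4.93 ± 0.28 (SE, edgeR, adjusted p = 5.7e-05) ranked 28th among the 5609 genes with a negative value. The log2 difference was -5.39 in batch 1 and -4.61 in batch 2. SFRP4 lies on chromosome 3 from 77251894 to 77261487 on the plus strand in the same annotation, with 6 exons and no overlapping gene.

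FRZB, first known from cartilage, was the family member that rose. FRZB was at 103, 98.0 and 101 CPM in the PDGF libraries and at 67.7, 51.2 and 52.7 CPM in the PDGFNO libraries. The PDGF libraries lay within 5 CPM of each other, while PDGFNO replicate 1 stood above replicates 2 and 3. The PDGF mean of 101 ± 2.50 CPM was 1.76-fold above the control mean of 57.2 ± 9.12 CPM (SD, n = 3), which edgeR fitted as a log2 fold change of 0.82 ± 0.15 (SE) with an adjusted p = 0.0091. The log2 difference was 0.60 in batch 1 and 0.94 in batch 2. With replicates 2 and 3 of each group summed to 1 library, the adjusted p was 0.15 and the call was lost. FRZB lies on chromosome 12 from 69938357 to 69970301 on the minus strand in Mmul_10.

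SFRP1, the other abundant family member, leaned the same way as FRZB without passing the test. SFRP1 was at 404, 361 and 357 CPM with PDGF and at 318, 285 and 289 CPM without. The groups did not overlap, and replicate 1 was the highest of both groups. The PDGF mean was 374 ± 26.3 CPM and the control mean 297 ± 18.2 CPM (SD, n = 3). The log2 fold change of 0.33 had a 95% confidence interval of 0.05 to 0.61 and, by edgeR, an adjusted p = 0.099. Blocking on the replicate number lowered the adjusted p to 1.1e-06 in edgeR, and 2 antagonists were then called higher, in a fit that called 31.1% of all genes higher and 29% lower. With replicates 2 and 3 summed, SFRP1 had an adjusted p of 0.45, in a fit that called 1.72% of all genes higher and 4.06% lower. The log2 difference was 0.35 in batch 1 and 0.32 in batch 2. Across the 4 family members analysed, the summed level was 1120 to 1255 CPM with PDGF and 2097 to 2403 CPM without.

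WIF1, the ligand-binding antagonist outside the SFRP family, was close to undetected with PDGF. WIF1 had 2, 1 and 0 counts in the PDGF libraries and 21, 20 and 17 counts in the PDGFNO libraries. The totals of 3 and 58 counts gave a level 24.1-fold higher in the controls, with an exact (Clopper-Pearson) 95% interval of 7.85 to 120. This interval reflects counting error alone. The fitted log2 fold change was -4.42 ± 0.64 (SE, edgeR, adjusted p = 0.0031), a value that depends on how edgeR treats counts near 0. Even without PDGF, WIF1 reached 1.77 ± 0.131 CPM (SD, n = 3), so its large ratio adds little to the summed level. WIF1 lies on chromosome 11 from 64626597 to 64698859 on the minus strand in Mmul_10, where LOC114671256 on the opposite strand overlaps the gene but none of its exons.

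Of the Dickkopf genes that act on LRP6, DKK1 was lower with PDGF by a similar amount in both batches. DKK1, itself also known as a target of Wnt signaling, was at 192, 163 and 172 CPM with PDGF and at 387, 327 and 328 CPM without. Replicate 1 was the highest in both groups, and no PDGF library reached a PDGFNO library. The PDGF mean of 176 ± 15 CPM was 1.98-fold below the control mean of 347 ± 34.6 CPM (SD, n = 3), which edgeR fitted as a log2 fold change of -0.98 ± 0.14 (SE) with an adjusted p = 0.0025. The log2 difference was -1.01 in batch 1 and -0.97 in batch 2. With replicates 2 and 3 summed, the adjusted p was 0.062 and the call was lost. DKK1 lies on chromosome 9 from 85632133 to 85635491 on the minus strand in Mmul_10, with 4 exons.

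DKK3, the divergent Dickkopf gene, was the antagonist with overlapping groups. DKK3 was at 184, 213 and 225 CPM with PDGF and at 212, 216 and 226 CPM without. PDGF replicate 1 was the lowest of all 6 libraries, and the other 5 lay between 212 and 226 CPM. The log2 fold change was -0.07 with a 95% confidence interval of -0.37 to 0.23 (edgeR adjusted p = 0.73), and its sign turned to 0.017 without PDGF replicate 1. The log2 difference was -0.20 in batch 1 and -0.01 in batch 2. DKK3 lies on chromosome 14 from 53614484 to 53661461 on the plus strand in Mmul_10, with 12 exon blocks.

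**Figure D2:**
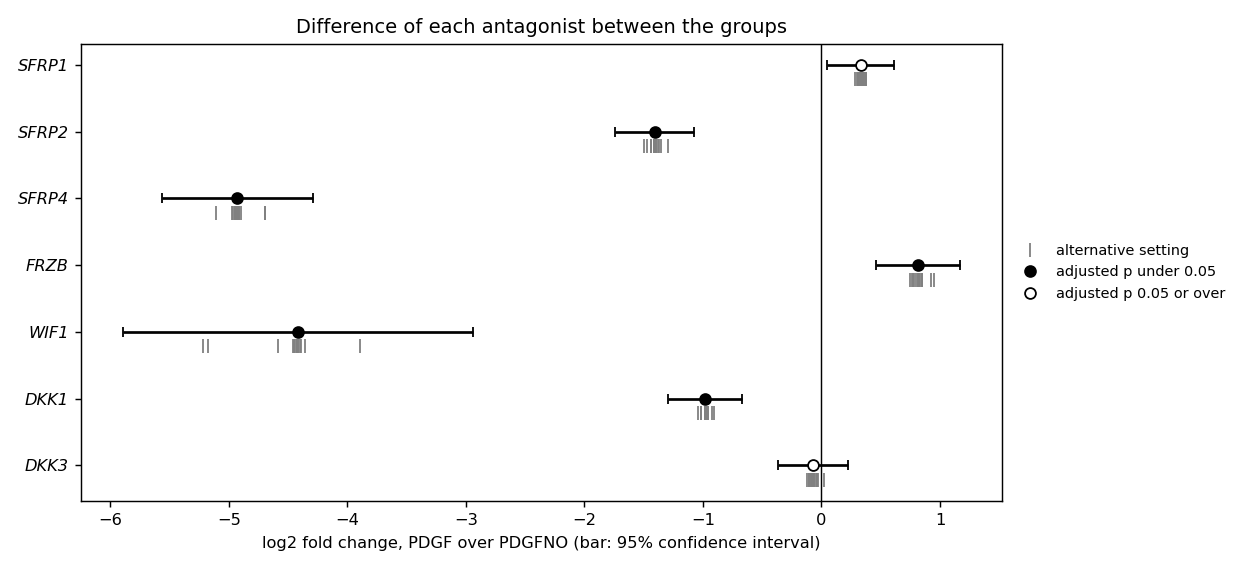
Log2 fold change of each antagonist with PDGF over without (horizontal axis), with 95% confidence intervals. Filled points mark an adjusted p under 0.05, and grey ticks give the value under each alternative setting. SFRP4 and WIF1 lie below -4, SFRP2 and DKK1 between -1.5 and -0.9 in the main fit, and FRZB near 0.8, while only for DKK3 did a tick cross 0.

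Whether the total of antagonist transcripts fell was addressed by summing the 7 genes in each library, first as reads and then divided by exon length, since a long transcript yields more reads than a short one at equal abundance. The summed level was 1497, 1630 and 1616 CPM with PDGF and 2698, 2908 and 2958 CPM without. The mean was 1581 ± 73.5 CPM against 2854 ± 138 CPM (SD, n = 3), a change of -44.6%. Every PDGF library was below every PDGFNO library, and the log2 ratio was -0.85 in batch 1 and -0.85 in batch 2. No test was run on the sum, because the genes were chosen with earlier results known. Before normalization, the 7 genes held 0.157% to 0.160% of all counts with PDGF and 0.283% to 0.285% without.

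Per kilobase (kb) of exon, the total was 908, 945 and 934 CPM per kb with PDGF and 1462, 1545 and 1570 CPM per kb without, a change of -39.1%. SFRP2 accounted for most of it: the total fell by 597 CPM per kb (929 ± 19.0 against 1526 ± 56.4, SD, n = 3), and SFRP2 alone fell by 586 CPM per kb, or 98.3% of the net change. The other changes nearly offset each other. DKK1 fell by 93.5 CPM per kb and SFRP4 fell by 8.53 CPM per kb, while SFRP1 was 76.1 CPM per kb higher and FRZB 19.6 higher. Without SFRP2, the remaining 6 genes summed to 574 ± 28.7 CPM per kb with PDGF and 585 ± 39.8 CPM per kb without (SD, n = 3), and the groups overlapped. This near balance depended on the weighting. The 6 genes changed by -8.34% in reads and by -11.4% per kb of coding sequence, a weighting chosen after seeing the data, and the groups did not overlap in either. SFRP4 and WIF1, the genes with the largest fold changes, contributed 1.43% and 0.129% of the net change per kb of exon.

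**Figure D3:**
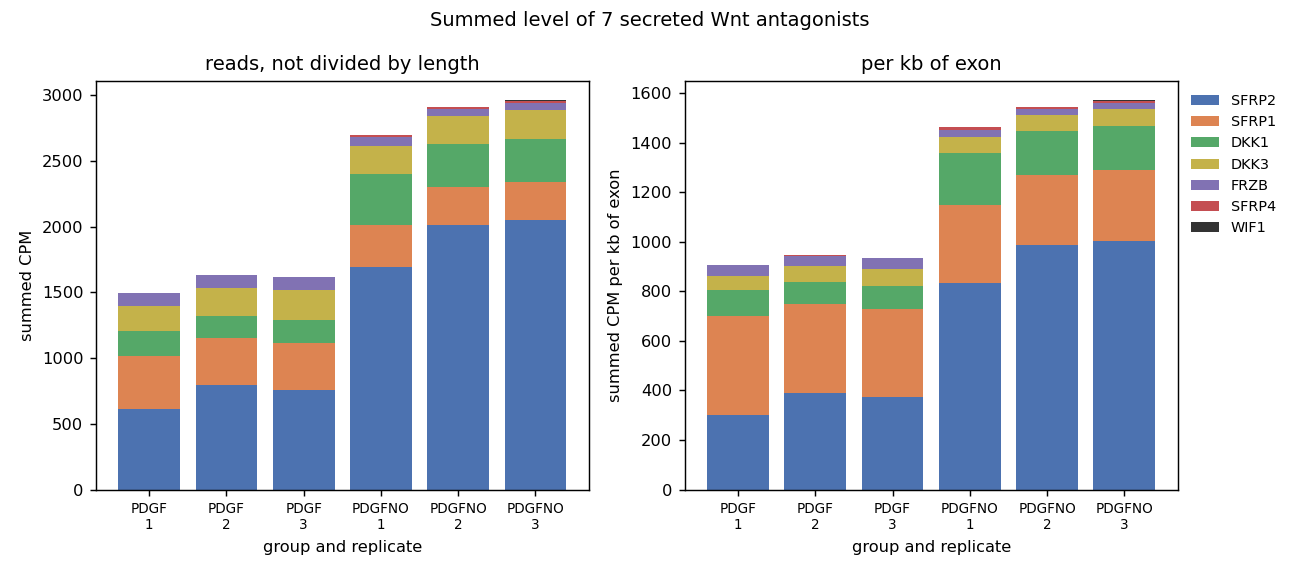
Summed level of the 7 antagonists in each library (bars, linear axis from 0), as CPM on the left and as CPM per kb of exon on the right, with 1 colour per gene. The PDGF totals lie between 1497 and 1630 CPM and the PDGFNO totals between 2698 and 2958 CPM, and the SFRP2 segment shrinks most.

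The make-up of the pool differed between the groups as well. Per kb of exon, SFRP2 held 38.1 ± 4.39% of the pool with PDGF and 61.6 ± 4.07% without (SD, n = 3). The share of SFRP1 was 40.0 ± 3.62% with PDGF and 19.4 ± 1.92% without. Its size depended on the length used, since per kb of coding sequence SFRP1 held 23.6 ± 2.76% and 10.04 ± 1.116%, and SFRP2 held 48.1 ± 4.42% and 68.6 ± 3.77%. On both lengths the SFRP1 share was higher with PDGF and the SFRP2 share lower. In exon kb, FRZB held 4.89 ± 0.216% against 1.70 ± 0.337%, DKK1 held 10.3 ± 1.10% against 12.5 ± 1.72%, and DKK3 held 6.68 ± 0.576% against 4.28 ± 0.0850%. Without PDGF the order of levels per kb of exon was SFRP2, SFRP1, DKK1, DKK3, FRZB, SFRP4 and WIF1, each above the next by more than the spread between replicates. Per kb of coding sequence DKK1, at 435 ± 43.4 CPM per kb, was instead above SFRP1, at 316 ± 19.3 CPM per kb (SD, n = 3). With PDGF, SFRP1 at 371 ± 26.0 and SFRP2 at 354 ± 47.5 CPM per kb (SD, n = 3) did not differ beyond their spread, and the order of the other genes was the same. The ratio of SFRP2 to SFRP1 per length was 0.750, 1.09 and 1.05 in the PDGF libraries and 2.64, 3.49 and 3.51 in the PDGFNO libraries. The SFRP1 model used for length spans 1009 bases of exon, of which 942 are coding, whereas that of SFRP2 spans 2038 bases, of which 885 are coding. Per kb of coding sequence SFRP2 stayed above SFRP1 with PDGF, at 816 ± 110 against 397 ± 27.9 CPM per kb (SD, n = 3).

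Genes that act beside the antagonists were read from lists of Wnt pathway members. Among 8 other antagonists and KREMEN receptors, 6 had a row and 2 were tested. DKKL1, a Dickkopf-like gene known from spermatids, was lower with PDGF, at 2.02, 2.66 and 2.63 CPM against 14.5, 27.3 and 27.4 CPM (log2 fold change -3.24 ± 0.31 (SE), edgeR adjusted p = 4.5e-04). KREMEN1, a partner of DKK1 at the cell surface, averaged 5.86 ± 0.321 CPM with PDGF against 5.46 ± 1.45 CPM in the controls (SD, n = 3, edgeR adjusted p = 0.82), and KREMEN2 had 0 counts in all libraries. DKK4 had 2 counts over the PDGF libraries and 4 over the PDGFNO libraries.

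Of 21 ligand and ligand secretion genes, 13 had a row, 6 were tested, 2 were higher and 4 did not pass the test. Over all genes tested, edgeR called 7.61% higher. WNT5B, a ligand usually linked to signaling without beta-catenin, was at 29.9, 53.4 and 57.0 CPM with PDGF and at 4.52, 10.7 and 7.05 CPM without, a 6.29-fold rise (log2 fold change 2.66 ± 0.36 (SE), edgeR adjusted p = 0.0023). WLS, which carries ligands to the cell surface, was 1.30-fold higher (edgeR adjusted p = 0.048), and lost its call with any 1 library left out (adjusted p of 0.064 to 0.163). Of the 13 receptor genes tested, LRP6 was higher, FZD4 and ROR1 were lower and 10 did not pass the test. These counts were near the shares over all genes tested, 7.61% higher and 10.7% lower. With the replicate block, which called 31.1% of all genes higher and 29% lower, 1 receptor gene was higher and 5 were lower. With replicates 2 and 3 summed, where 1.72% of all genes were higher and 4.06% lower, 2 were lower and LRP6 lost its call. LRP6, the co-receptor that DKK1 binds, was 1.56-fold higher (edgeR adjusted p = 0.038) and also lost its call with any 1 library left out. FZD4, a Frizzled receptor, was at 7.22, 6.80 and 7.36 CPM against 18.8, 19.8 and 19.7 CPM (edgeR adjusted p = 0.0011). ROR1, a receptor for WNT5A-type ligands, was at 0.540, 0.156 and 1.35 CPM against 4.93, 3.45 and 4.51 CPM (log2 fold change -2.63, edgeR adjusted p = 0.015). The call was lost in 1 of 6 fits that each left out a library (adjusted p = 0.053). ROR1 passed the filter on low counts only through the PDGFNO libraries.

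Of 9 genes of the R-spondin axis, which amplifies Wnt signals at the receptor, 4 were tested, LGR6 was higher and 3 did not pass the test. LGR6 had 103 counts over the PDGF libraries and 1 over the PDGFNO libraries (edgeR adjusted p = 0.0017). It passed the filter on low counts only through the PDGF libraries. The main fit called 7.61% of all genes tested higher and 10.7% lower. Of 6 tested target genes of beta-catenin signaling, 3 were higher and 3 did not pass the test. CCND1, a cyclin of the G1 phase, was 3.08-fold higher (edgeR adjusted p = 2.7e-04). TCF7, a transcription factor of the pathway, was 1.90-fold higher (edgeR adjusted p = 0.0049), with the call lost when replicates 2 and 3 were summed (adjusted p = 0.101). MYC was 1.42-fold higher (edgeR adjusted p = 0.047) and was called in 1 of 6 fits that each left out a library (adjusted p of 0.039 to 0.159). LEF1, among those not called, averaged 29.5 ± 2.69 CPM with PDGF against 37.2 ± 5.63 CPM in the controls (SD, n = 3, edgeR adjusted p = 0.22). With the replicate block, which called 31.1% of all genes higher and 29% lower, 5 targets were higher and 1 was lower. With replicates 2 and 3 summed, where 1.72% of all genes were higher, CCND1 was the 1 target called.

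**Figure D4:**
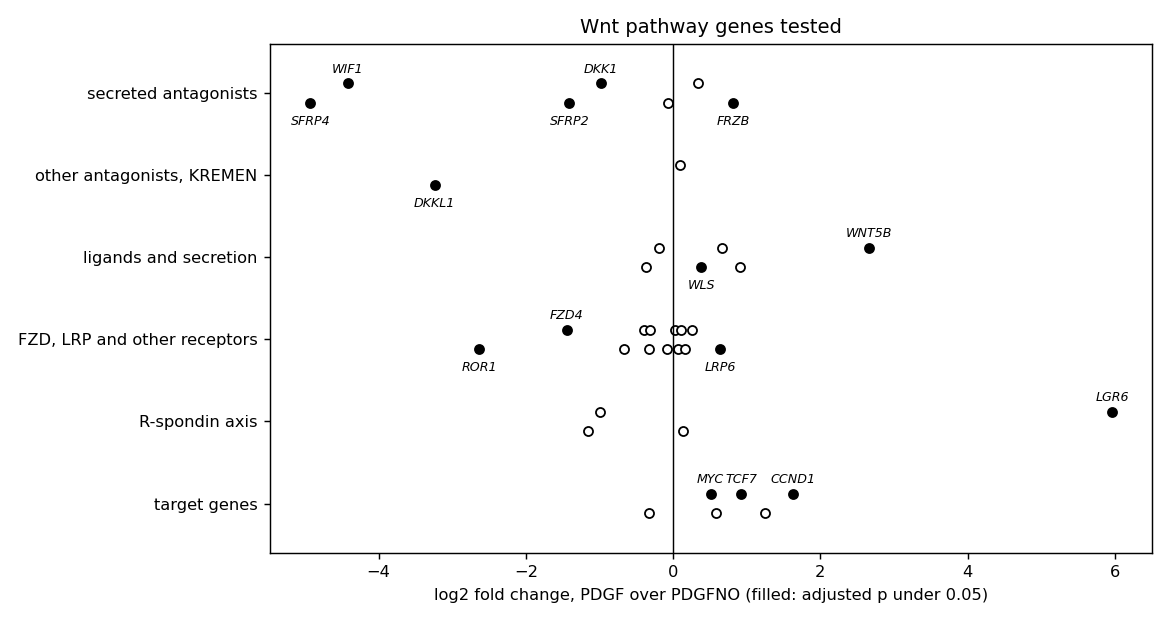
Log2 fold change with PDGF over without (horizontal axis) of the Wnt pathway genes tested, 1 point per gene and 1 row per list, with filled and named points at an adjusted p under 0.05. The antagonist row holds 4 filled points below 0 and FRZB above 0, while WNT5B in the ligand row lies at 2.66 and ROR1 in the receptor row at -2.63.

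Markers of cell types that could express the antagonists also differed between the groups. Of 5 markers of myoid cells, the smooth muscle-like cells around the tubules, ACTA2 and DES were lower with PDGF and 3 did not pass the test, and their summed level was 369 to 478 CPM with PDGF and 696 to 908 CPM without. Of 7 stromal markers, COL3A1 and PDGFRA were lower and 5 did not pass the test. Over all genes tested, edgeR called 10.7% lower and 7.61% higher. Epithelial markers summed to 31.0 to 41.8 CPM against 76.5 to 106 CPM, and 3 of the 3 tested were lower. The spermatid markers TNP1 and TNP2 were both lower, with sums of 47.5 to 75.2 CPM against 412 to 679 CPM. The summed level of Sertoli markers, 1341 to 1786 CPM against 780 to 1028 CPM, was almost all CLU, which is expressed in many cell types. CLU averaged 1610 CPM against 935 CPM and was the one called higher. INHA, at 1.65 against 1.93 CPM, and WT1, at 2.13 against 2.07 CPM, did not pass the test. FATE1 had 0 counts with PDGF and 33 without. Leydig markers lay at 265 to 333 CPM and 232 to 269 CPM, most of it STAR (mean 296 against 234 CPM). CYP11A1 had 0 counts in all libraries, and of the 4 Leydig markers tested IGF1 was lower. Endothelial markers lay at 7.44 to 8.99 CPM and 3.86 to 7.54 CPM, and immune markers at 16.1 to 18.9 CPM and 11.3 to 17.7 CPM, with PTPRC at 0 in all libraries. Spermatogonial markers summed to 135 to 152 CPM against 176 to 260 CPM, mostly ID4 (mean 131 against 163 CPM), and FGFR3 was called lower. General germ cell markers summed to 0.30 to 1.22 CPM against 4.70 to 8.43 CPM, with DDX4 and MAEL called lower. DDX4, MAEL and the epithelial marker CDH1 passed the filter on low counts only through the PDGFNO libraries. With the replicate block, 2 stromal markers were higher and 4 lower, and 4 myoid markers were lower, in the fit that called 31.1% of all genes higher and 29% lower. With replicates 2 and 3 summed, where 4.06% of all genes were lower, 1 stromal and 2 myoid markers were lower. In that fit PDGFRA, the epithelial marker PAX8, IGF1, FGFR3, DDX4 and CLU lost their calls (edgeR adjusted p of 0.063 to 0.27). The other markers called in the main fit kept theirs. With each library left out in turn, PDGFRA was called in 1 of 6 fits (adjusted p up to 0.149), CDH1, FGFR3 and DDX4 in 3 (up to 0.069, 0.071 and 0.101) and CLU in 4 (up to 0.056). The part of these cell types in the antagonist levels was not tested.

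The genes most alike in level to the most counted antagonists were found by Pearson's r of log2(CPM + 1) over the 6 libraries, among 8343 tested genes with a mean of at least 10 CPM. These values are a description, since with 2 groups and 2 batches many genes share such a pattern. For SFRP2 they were TNP2, EMC10 and MFAP4, the last of which encodes a microfibril protein of the matrix, each at r = 0.999 or above. For SFRP1 they were DEGS1, TFRC (the transferrin receptor) and CAST, and for DKK1 they were MAMDC2, C7 (a complement component) and SP1, all at r = 0.998 or above.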

How the data were processed

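The authors deposited expected counts per gene, without normalization, for 6 libraries. The submitters' processing notes name fastp, HISAT2 2.1.0, SAMtools and featureCounts 2.0.1, with the builds Mmul_10 and Mmul_8.0.1. The roles of the builds, the annotation and the strand setting are not given in the sources used here. Of 17795 genes, 13 had a value that was not whole, none of them an antagonist, and values were rounded, although the plan had assumed whole counts. Columns were matched to samples by title.

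Counts were normalized with TMM factors, filtered with filterByExpr by group and tested with the quasi-likelihood test in edgeR 4.0.16 (R 4.3.3), without a block and with Benjamini-Hochberg adjustment over 11539 genes. Each SE was taken from the log2 fold change and its F statistic. Within-batch log2 differences had the CPM worth of 0.5 counts added. Exon lengths and positions came from the RefSeq annotation of Mmul_10, matched by symbol, and may differ from the gene models the authors counted on. Genes named are the antagonists, the genes called in each list and the 3 genes most alike to each of the 3 most counted antagonists. LEF1, KREMEN1, KREMEN2, DKK4, ID4, GFRA1 and the markers at 0 were named after their values were seen. The members and lists were chosen with earlier results of these data known.

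The labels put same-numbered libraries of both groups in 1 batch, and their deviations from the group mean moved together across genes (r = 0.73, 0.35 and 0.37 for numbers 1, 2 and 3). Within batch 2 the libraries with different numbers did so as much (r = 0.39 and 0.36), so the values do not pair replicates 2 and 3 by number. The deviations within a group cancel out, so the values for numbers 2 and 3 follow in part from that of number 1. What the values show is that replicate 1 deviated alike in both groups. A model blocked on the number was an alternative. Others were RLE or no factors, other count filters, DESeq2 1.42.0, batch as a term, batch 2 alone, replicates 2 and 3 summed, and each library left out. In counts simulated for PDGF against PDGFNO over 11416 genes, edgeR recovered 145 of 198 changed genes with 12 false calls. The share recovered was 98% at an absolute log2 change of 2 and 49% at 1. The simulated libraries were independent and had no shared batch, unlike these data, so the shares and false calls may not hold here. Figures were drawn in Python 3.11.15 with matplotlib 3.10.9, and tables were made with pandas 2.3.3 and scipy 1.17.1.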

Additional observations from a re-analysis of the deposited data

How the results depend on the processing

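SFRP2, SFRP4, WIF1, DKK1 and FRZB kept their direction under every alternative that tested them, and with each library left out all 5 kept an edgeR adjusted p under 0.05. A minimum of 10 counts in every library removed SFRP4 and WIF1, leaving 2 antagonists lower. In edgeR, 2 antagonists were higher with the replicate block, with batch as a term and in batch 2 alone, where SFRP1 joined FRZB. The same held with replicates 2 and 3 summed under a batch term. In that order, these fits called 6934 of 11539, 6991 of 11539, 6126 of 11605 and 7089 of 11992 genes in either direction. With replicates 2 and 3 summed and no batch term, edgeR called 0 higher (1 at an unadjusted p under 0.05) and 3 lower. That fit called 1.72% of all genes higher and 4.06% lower. DESeq2 called 1 antagonist higher and 4 lower, and 2776 of 14791 genes in either direction. The replicate block changed no other antagonist's call. DKK3 turned to 0.017 without PDGF replicate 1; the cause was not tested.

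Over all genes, 2108 were called, and 6934 with the replicate block, 6991 with batch as a term, 6126 in batch 2 alone, 693 with replicates 2 and 3 summed, and 7089 with that sum and a batch term, where 1 residual degree of freedom makes the p-values rest on a spread pooled over genes. With each library left out the count ranged from 1168 to 3010, and it fell by over 1.5 times without replicate 2 or 3 of either group (1168 to 1206).

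The log2 ratio of the summed level was -0.85, and -0.72 per kb of exon. It was -0.85 as the mean of the ratios within replicate numbers, the replicate block for a sum. Without SFRP2 it was -0.13, or -0.026 per kb of exon. Per kb of coding sequence, a setting chosen after seeing the data, it was -0.90. With other scaling, either batch alone or each library left out, the log2 ratio of the summed level ranged from -0.89 to -0.81. Per kb of exon it ranged from -0.75 to -0.69. At this depth, WIF1 with PDGF rests on 3 counts.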
